A study of Homo sapiens with 9 samples.

Results

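The expression of 10 genes that are used as markers of stem cells and tumor-initiating cells was followed in the human hepatocellular carcinoma (HCC) cell line MHCC97L and in its drug-resistant derivatives. The 10 genes, PROM1, CD24, SOX2, SOX9, KLF4, MYC, NANOG, BMI1, ALDH1A1 and ALDH1A3, were named by gene symbol, and each of them is listed among the 20030 genes of the deposited tables. RNA sequencing covered 9 libraries, 3 from each of 3 lines. MHCC97L is the untreated parental line, called wild-type. MHCC97L-Src is a derivative selected on rising doses of saracatinib, an inhibitor of the kinase SRC, with stable resistance at 4 μmol/L. MHCC97L-Oxa was stably resistant to 2 μmol/L oxaliplatin, a platinum compound that crosslinks DNA. All 3 lines share the MHCC97L background and the same culture medium. Each drug was represented by a single derived line, so that a property of the line and an effect of the drug cannot be told apart. Whether drug was present at harvest is not given in the sources used here. The study's text speaks of independent experiments for the wild-type and saracatinib-resistant libraries and of repeated experiments in general, while the labels do not name separate cultures. Where libraries of a line share a culture, a p-value measures only the spread between libraries.

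Tumor-initiating cells are the fraction of tumor cells that can regrow a tumor, and they are often described as more tolerant of chemotherapy than the bulk. No single gene defines them. PROM1 encodes the membrane glycoprotein CD133, and CD24 encodes a small surface protein anchored to the membrane by a lipid. SOX2, NANOG, KLF4 and MYC are transcription factors of the pluripotency network, SOX9 marks progenitor cells of the liver and bile ducts, and BMI1 is a subunit of Polycomb repressive complex 1, which silences the CDKN2A locus. ALDH1A1 and ALDH1A3 are aldehyde dehydrogenases that make retinoic acid, and their activity underlies the dye assay that is used to sort tumor-initiating cells.

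Each library held between 16970486 and 18209213 reads counted on genes. Libraries of MHCC97L were less alike (Pearson's r across genes of log2 CPM, the counts scaled to library size, from 0.859 to 0.956) than those of MHCC97L-Src (0.969 to 0.987) or MHCC97L-Oxa (0.984 to 0.9895), where genes are not independent replicates. MHCC97L replicate 1 stood apart. GC content and gene length accounted for 67.6% and 66.7% of the variance of its deviation from the other libraries in the comparisons with MHCC97L-Src and MHCC97L-Oxa, against 4.44% to 50.9% for the other libraries over all comparisons. The labels name the tissue as liver, but the hepatocyte genes ALB, APOB, TTR and AFP had 0 counts in all 9 libraries, and the 9 hepatocyte genes examined summed to 0.206 to 0.583 CPM in the libraries of MHCC97L, to 1.11 to 2.01 in those of MHCC97L-Src and to 1.28 to 2.16 in those of MHCC97L-Oxa. Epithelial markers summed to 3069 to 5985, 4548 to 7090 and 2906 to 3182 CPM in the same order, 6 fibroblast genes to 529 to 715, 375 to 470 and 516 to 530 CPM, and 4 endothelial genes to 0.886 to 2.14 CPM over all libraries, with CLDN5 and KDR at 0. The epithelial sum was mostly keratins KRT8 and KRT18, while EPCAM had 0 to 0.110 CPM over all libraries. The junction genes CDH1 and CLDN4 lay at 0.835 to 1.11 and 1.50 to 2.80 CPM in the wild-type libraries, 0.130 to 0.296 and 24.7 to 32.0 in those of MHCC97L-Src, and 0.112 to 0.217 and 4.52 to 6.12 in those of MHCC97L-Oxa. Of 5 leukocyte genes, PTPRC and CD3E were at 0, and the sum was 46.0 to 81.1, 75.2 to 107 and 147 to 151 CPM, nearly all of it CD68. The fibroblast sum was mostly THY1, at 289 to 603 CPM, with COL1A2 and PDGFRA at 0 to 0.103 CPM. COL1A1 had 55.8 to 80.7 CPM over all libraries. DCN had 40.6 to 116 CPM in wild-type libraries, 10.6 to 24.5 in MHCC97L-Src and 60.4 to 69.9 in MHCC97L-Oxa. LUM had 2.86 to 11.3, 0.522 to 1.42 and 2.44 to 3.25 CPM in the same order. Both DCN and LUM were highest in MHCC97L replicate 1. The part of these differences in the results below was not tested. In bulk RNA, fewer cells of a type and less RNA per cell cannot be told apart.

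The 10 markers fell into an abundant, a low and an undetected group. MYC and CD24 were among the most abundant transcripts of every line. In FPKM, the authors' unit of fragments scaled to transcript length and library size, CD24 was the highest marker of MHCC97L at 204 ± 89.4 (SD, n = 3), ahead of MYC at 110 ± 10.2. In the resistant lines this order was the opposite. MYC stood at 172 ± 24.3 FPKM in MHCC97L-Src and 151 ± 9.20 in MHCC97L-Oxa, and CD24 at 98.0 ± 19.0 and 97.6 ± 8.36. The ranges of MYC and CD24 in FPKM did not overlap within any line, and in each line at least 96.7% of the genes had a lower mean FPKM than either. KLF4 followed with 14.2 ± 2.65 FPKM in the wild-type line, 7.27 ± 2.30 in MHCC97L-Src and 14.7 ± 1.85 in MHCC97L-Oxa, apart from its neighbours in the order in every line. SOX9 had 0.583 ± 0.0858, 1.34 ± 0.122 and 1.76 ± 0.140 FPKM in the same 3 lines, and ALDH1A3 0.840 ± 0.454, 0.230 ± 0.181 and 0.316 ± 0.108. In MHCC97L the FPKM ranges of SOX9 and ALDH1A3 overlapped, and in both resistant lines SOX9 was the higher. The plot of marker levels by library gives the counts of the same libraries in CPM, which are not scaled to transcript length and do not compare genes.

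**Figure D1:**
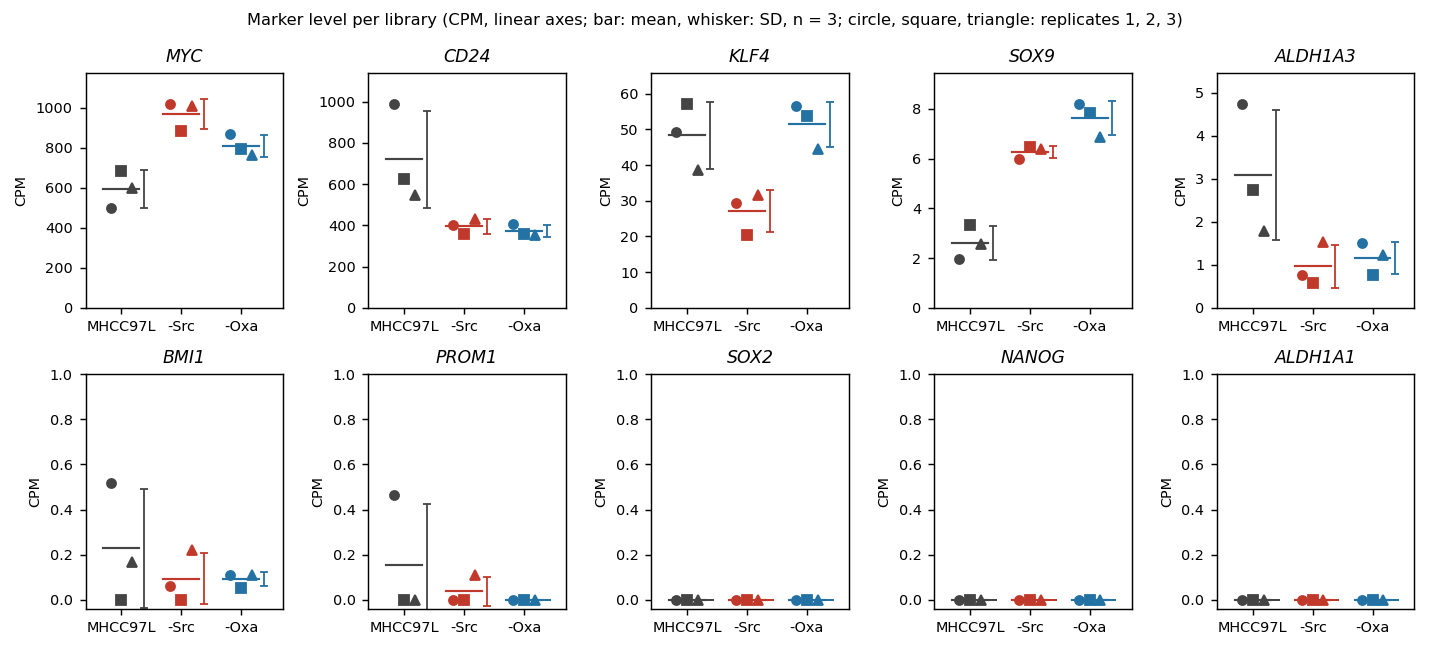
Level of each of the 10 markers in CPM on linear axes, in the 3 libraries of MHCC97L, MHCC97L-Src (-Src) and MHCC97L-Oxa (-Oxa), with bars for the mean and whiskers for the SD (n = 3), which are cut off where they reach below the axis. MYC sits at 884 to 1019 CPM in MHCC97L-Src and KLF4 at 20.5 to 31.5, while SOX2, NANOG and ALDH1A1 sit at 0 in all 9 libraries.

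Comparisons were made of each resistant line with MHCC97L and the resistant lines with each other. Both comparisons with MHCC97L use the same 3 wild-type libraries, so their results are not independent of each other. Of the 10 markers, 5 (CD24, SOX9, KLF4, MYC and ALDH1A3) had enough reads to be tested, and the other 5 did not. A gene was called at an adjusted p under 0.05 by edgeR's quasi-likelihood test with Benjamini-Hochberg adjustment over all genes tested. In MHCC97L-Src against MHCC97L 0 of the 5 tested markers were called, where 2.13% of all tested genes were. In MHCC97L-Oxa against MHCC97L 0 of 5 were called, beside 0.953% of all genes. In MHCC97L-Src against MHCC97L-Oxa 1 of 5, KLF4, was called, beside 4.64% of all genes. At an unadjusted p under 0.05 the counts were 5, 3 and 2 of 5 in these comparisons, beside 29.5%, 22.4% and 19.5% of all genes. At that p with an absolute log2 fold change over 1 they were 2, 2 and 0 of 5, beside 24.6%, 16.2% and 4.01%. DESeq2's Wald test called 2 markers (SOX9 and MYC), 1 (SOX9) and 1 (KLF4), beside 14.4%, 6.14% and 5.59% of the genes it tested. After correction of the counts for GC content and gene length edgeR called SOX9 and KLF4, then CD24 and SOX9, then KLF4, beside 10.6%, 12.9% and 9.63% of all genes. With all 9 libraries in one fit it called CD24, SOX9, KLF4 and MYC in MHCC97L-Src, CD24 and SOX9 in MHCC97L-Oxa and 0 markers between them, beside 16.0%, 4.05% and 0.703%. On log2(FPKM + 1), limma-trend called 0 markers, SOX9 alone and 0 markers, beside 1.90%, 2.09% and 4.06%. Without regard to a test, the 3 libraries of a line lay all above or all below those of the other for 5, 4 and 3 of the 5 markers, beside 29.8%, 28.1% and 26.7% of all genes. The median log2 fold change of all genes was -0.16 in MHCC97L-Src and -0.19 in MHCC97L-Oxa against MHCC97L, and -0.02 between the resistant lines. Without MHCC97L replicate 1 the medians against MHCC97L were -0.040 in MHCC97L-Src and 0.00097 in MHCC97L-Oxa.

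KLF4 (NCBI gene number 9314) was lower in MHCC97L-Src than in MHCC97L-Oxa. It is a zinc finger transcription factor, used with OCT4, SOX2 and MYC to reprogram somatic cells, and it also restrains the cell cycle in differentiated epithelia. The gene lies on chromosome 9 between 107484852 and 107490482 of GRCh38, - strand (GENCODE release 29), and 1 pseudogene carries its name. The 250 bases upstream of its RefSeq start, at chr9:107489770-107490019 on the - strand (GRCh38.p14), are shown because KLF4 was the only marker called. This start lies downstream of the outermost start in GENCODE, so the window falls inside the gene as bounded above, in no exon listed by GENCODE. They are printed 5′ to 3′, with capitals marking matches to 2 motifs on either strand. The first is the GC box GGGCGG, to which factors of the SP and KLF families bind. The second is the E-box CACGTG, to which MYC and MAX bind.

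KLF4: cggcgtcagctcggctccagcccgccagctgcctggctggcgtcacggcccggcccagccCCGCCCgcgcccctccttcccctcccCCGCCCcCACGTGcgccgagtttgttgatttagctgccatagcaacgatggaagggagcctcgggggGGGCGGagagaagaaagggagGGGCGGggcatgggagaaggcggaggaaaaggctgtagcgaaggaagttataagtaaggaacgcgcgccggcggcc

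This window held 4 GC boxes and 1 E-box among 25 CpG dinucleotides, where the median of 35116 RefSeq promoters of the same length was 11 CpG. At least 1 GC box occurred in 42.6% and an E-box in 6.34% of those promoters. The TCF/LEF motif, searched as CTTTGAA and with a final T in its place as CTTTGAT, was absent here and present in 5.94% of promoters. The AP-1 motif TGACTCA was absent as well and present in 4.20% of them, and so was the TATA box TATAAA, present in 10.7%. A match of letters is a description and not evidence of binding.

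KLF4 had 29.4, 20.5 and 31.5 CPM in replicates 1, 2 and 3 of MHCC97L-Src, and 56.4, 53.6 and 44.4 CPM in those of MHCC97L-Oxa. The lowest MHCC97L-Oxa library was above the highest MHCC97L-Src library. The level of KLF4 was 1.90-fold lower in MHCC97L-Src (log2 fold change -0.92, SE 0.19, edgeR adjusted p = 0.0213). MHCC97L had 49.2, 57.1 and 38.6 CPM. These values lay above all of MHCC97L-Src and across the range of MHCC97L-Oxa. Against MHCC97L, the log2 fold change of KLF4 was -0.83 (SE 0.31, edgeR adjusted p = 0.130) in MHCC97L-Src and 0.09 (SE 0.24, edgeR adjusted p = 0.832) in MHCC97L-Oxa. The call between the resistant lines was lost in 3 of 6 edgeR fits with a single library left out, without MHCC97L-Src replicate 1 (adjusted p = 0.0656), MHCC97L-Oxa replicate 1 (0.0998) or MHCC97L-Oxa replicate 2 (0.127), with log2 fold changes from -1.05 to -0.77 over the 6 fits. Those 3 fits called 208, 243 and 167 genes in all, against 556 with every library. With all 9 libraries in the fit its edgeR adjusted p was 0.187. After the GC and length correction KLF4 was called in MHCC97L-Src against MHCC97L (-1.12, edgeR adjusted p = 0.0464). That call was lost with any library left out but MHCC97L replicate 2 (up to 0.161), at -1.31 to -0.90. Between the resistant lines KLF4 had -0.99 after the correction (edgeR adjusted p = 0.0132). The call there was lost without MHCC97L-Src replicate 1 or MHCC97L-Oxa replicate 1 or 2 (up to 0.0760), at -1.03 to -0.94. These fits called 282 to 1373 and 441 to 670 genes.

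The genes whose levels followed KLF4 most closely over the 9 libraries, by Pearson's r of log2 CPM among 12232 genes, were ZNF185 (r = 0.987), MICAL2 (0.974) and C16orf45 (0.973). ZNF185 and MICAL2 encode proteins that bind or remodel actin. The mean CPM of ZNF185 was 46.3 in wild-type cells, 30.3 in MHCC97L-Src and 46.3 in MHCC97L-Oxa. MICAL2 had 32.6, 20.6 and 34.5 CPM in the same order, and C16orf45 48.0, 29.4 and 51.9. The points share the libraries and their normalization, and the correlation is given as a description only.

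SOX9 (NCBI gene number 6662) lay higher in every library of both resistant lines than in MHCC97L, from a low level, without passing the threshold of the main test. SOX9 is a high mobility group transcription factor of bile duct and progenitor cells. It lies on chromosome 17, from 72121020 to 72126420 on the + strand, and overlaps SOX9-AS1 on the other strand. Since the counting program is not given in the sources used here, reads of the antisense gene cannot be told apart from its own. In reads counted, SOX9 had 38, 57 and 46 in the MHCC97L libraries, 101, 99 and 116 in those of MHCC97L-Src, and 148, 145 and 123 in MHCC97L-Oxa. Every resistant library was above every wild-type library, and the 3 lines did not overlap with each other. In CPM this was 2.61 ± 0.684 (SD, n = 3), 6.27 ± 0.255 and 7.64 ± 0.692. Its log2 fold change reached 1.26 in MHCC97L-Src (SE 0.42, edgeR adjusted p = 0.116) and 1.55 in MHCC97L-Oxa (SE 0.39, edgeR adjusted p = 0.120). SOX9 was the tested marker most often called against MHCC97L under other settings. DESeq2 gave adjusted p = 0.0153 in MHCC97L-Src and 0.00108 in MHCC97L-Oxa, and edgeR with a correction for GC content and gene length gave 0.0298 and 0.0112, at log2 fold changes of 1.26 and 1.55 that the correction left in place. The corrected call in MHCC97L-Src was lost without MHCC97L replicate 3 or any MHCC97L-Src library (adjusted p up to 0.115), at log2 fold changes of 1.16 to 1.32, and that in MHCC97L-Oxa without any MHCC97L-Oxa library (up to 0.0772), at 1.52 to 1.59. Over all genes those fits called 282 to 584 in place of 1276, and 204 to 297 in place of 1556. Between the resistant lines the log2 fold change of SOX9 was -0.29 (SE 0.20, edgeR adjusted p = 0.455), MHCC97L-Src being the lower in 3 of 3 libraries.

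MYC (NCBI gene number 4609), the basic helix-loop-helix factor that drives ribosome and nucleotide synthesis, was the most abundant marker of both resistant lines. It lies on chromosome 8, from 127735434 to 127741434 on the + strand. The MHCC97L libraries had 498, 685 and 598 CPM, those of MHCC97L-Src 1019, 884 and 1008, and those of MHCC97L-Oxa 868, 795 and 762. The lines stood in the order MHCC97L, MHCC97L-Oxa, MHCC97L-Src with no overlap. The log2 fold change against MHCC97L was 0.71 in MHCC97L-Src (SE 0.23, edgeR adjusted p = 0.112) and 0.45 in MHCC97L-Oxa (SE 0.20, edgeR adjusted p = 0.228). MHCC97L-Src against MHCC97L-Oxa gave 0.26 (SE 0.11, edgeR adjusted p = 0.211). These differences did not pass the threshold. Correction for GC content and gene length brought the first pair of values down to 0.43 and 0.22. In MHCC97L-Src other fits called MYC, with an adjusted p of 0.0483 by DESeq2 and 0.0301 by edgeR with all 9 libraries in one fit. Without MHCC97L replicate 2 edgeR gave 0.0497, in a fit that called 3419 genes, 27.8% of those tested, against 256 with that library. MYC was also called in MHCC97L-Oxa without MHCC97L replicate 1 (edgeR adjusted p = 0.0183), where 18.5% of all genes were, and in MHCC97L-Src against MHCC97L-Oxa without MHCC97L-Src replicate 2 (0.0391), where 8.51% were.

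CD24 (NCBI gene number 100133941) lay lower in every library of both resistant lines than in MHCC97L, also without passing the threshold, and the resistant lines overlapped. The CD24 protein is heavily glycosylated and is a ligand of selectins and of the inhibitory receptor Siglec-10. The gene lies on chromosome 6, from 106969831 to 106975627 on the - strand. Since 3 pseudogenes carry its name, the share of its counts that belongs to near-identical copies is uncertain. The 250 bases upstream of its first RefSeq start, at chr6:106975628-106975877 on the - strand (GRCh38.p14), are shown for comparison with KLF4, since CD24 lay below MHCC97L in both resistant lines where KLF4 did so in MHCC97L-Src only. The capitals mark its single match to the motifs named above, a GC box.

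CD24: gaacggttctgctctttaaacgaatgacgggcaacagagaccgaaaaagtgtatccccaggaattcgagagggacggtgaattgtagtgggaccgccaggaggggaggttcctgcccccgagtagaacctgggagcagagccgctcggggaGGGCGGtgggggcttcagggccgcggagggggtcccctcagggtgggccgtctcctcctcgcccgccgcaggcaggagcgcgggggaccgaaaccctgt

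This window held 20 CpG dinucleotides and no E-box. The MHCC97L libraries had 990, 624 and 546 CPM of CD24, those of MHCC97L-Src 400, 356 and 429, and those of MHCC97L-Oxa 405, 360 and 351. All resistant libraries lay below all wild-type libraries, and MHCC97L replicate 1 was far above its own group. Its log2 fold change against MHCC97L came to -0.87 (SE 0.28, edgeR adjusted p = 0.112) in MHCC97L-Src and -0.95 (SE 0.26, edgeR adjusted p = 0.144) in MHCC97L-Oxa. Without MHCC97L replicate 1 these were -0.53 and -0.56, and in MHCC97L-Oxa CD24 was then called (edgeR adjusted p = 0.00851), as it was without MHCC97L replicate 2 (0.0389). These fits called 18.5% and 22.1% of all genes. The GC and length correction gave -0.42 and -0.64, the second with an edgeR adjusted p of 0.00626, a call that was lost without any of the 3 MHCC97L-Oxa libraries (up to 0.0691) at log2 fold changes of -0.65 to -0.61. The longest CD24 transcript has 45.8% GC, below the 51.0% to 55.0% of SOX9, ALDH1A3, MYC and KLF4. The resistant lines differed by a log2 fold change of 0.09 (SE 0.11, edgeR adjusted p = 0.724).

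ALDH1A3 (NCBI gene number 220) was the aldehyde dehydrogenase with reads among the markers. It lies on chromosome 15, from 100877714 to 100916626 on the + strand, and overlaps AC015712.5 on the same strand and 2 genes on the other strand. The MHCC97L libraries had 92, 47 and 32 reads, those of MHCC97L-Src 13, 9 and 28, and those of MHCC97L-Oxa 27, 14 and 22. Each wild-type library was above each resistant library, and the resistant lines overlapped. As CPM the means were 3.09 ± 1.51 (SD, n = 3), 0.964 ± 0.504 and 1.16 ± 0.374. Against MHCC97L its log2 fold change came to -1.67 (SE 0.57, edgeR adjusted p = 0.119) in MHCC97L-Src and -1.41 (SE 0.51, edgeR adjusted p = 0.201) in MHCC97L-Oxa, neither past the threshold. Leaving out MHCC97L replicate 1 gave -1.17 and -0.87, and the correction for GC content and length gave -1.71 and -1.43. ALDH1A3 did not reach an adjusted p under 0.05 in any fit run (lowest 0.0529), and with SOX9 it was past the unadjusted p of 0.05 at a log2 fold change over 1 in size in both lines. In MHCC97L-Src against MHCC97L-Oxa the log2 fold change was -0.25 (SE 0.46, edgeR adjusted p = 0.818).

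**Figure D2:**
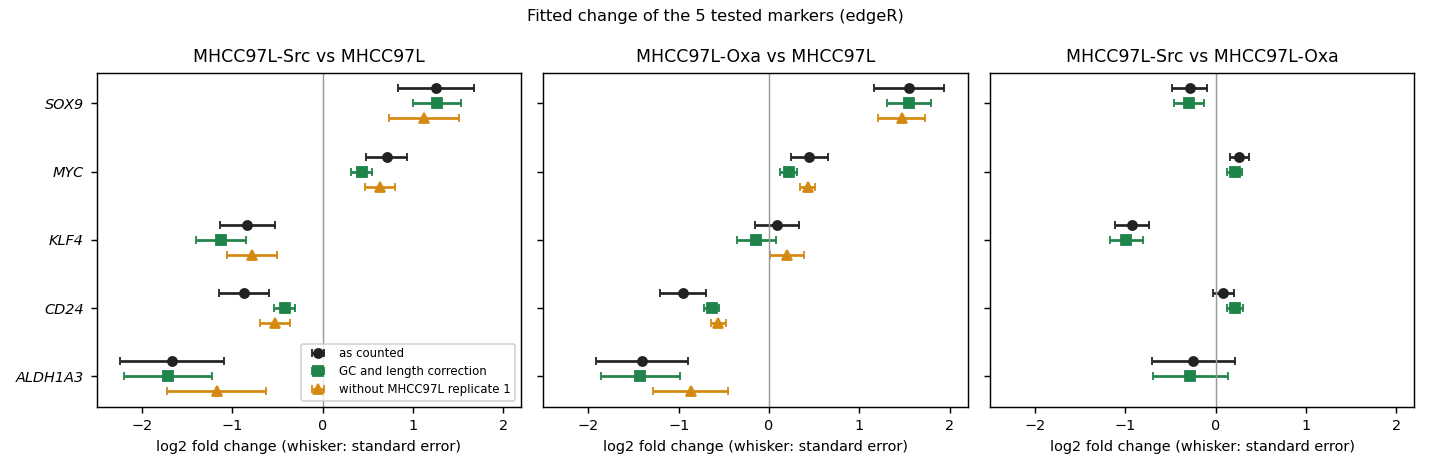
Log2 fold change of the 5 tested markers in the 3 comparisons, with whiskers for the standard error, as counted, after correction for GC content and gene length, and without MHCC97L replicate 1 (not part of the comparison of the resistant lines). SOX9 stays at 1.26 and 1.55 after the correction, whereas CD24 moves from -0.87 to -0.42 in MHCC97L-Src.

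The pluripotency factors SOX2 and NANOG were undetected. SOX2, which lies inside the long noncoding gene SOX2-OT on chromosome 3 (181711924 to 181714436, + strand), had 0 counts in each of the 9 libraries. NANOG, on chromosome 12 (7787794 to 7799141, + strand), also had 0 counts in each, and 11 pseudogenes carry its name. NANOGP8, its expressed retrogene, and POU5F1, which encodes OCT4, likewise had 0. SOX2, NANOG, NANOGP8 and POU5F1 were at 0 FPKM as well. By immunoblot the study reported more OCT4 protein in both resistant lines than in the parental line. RNA counts do not measure protein, and this difference was not tested. A count of 0 allows up to 3 counts, or 0.155 to 0.196 CPM at these depths. This limit covers counting error alone, and how PCR copies of a molecule were counted was not examined. ALDH1A1, on chromosome 9 (72900662 to 73080442, - strand), had 0 counts in all 9 libraries. PROM1, on chromosome 4 (15963076 to 16084378, - strand), had 9 reads in MHCC97L replicate 1, 2 in MHCC97L-Src replicate 3 and 0 in the other 7 libraries. The reads of PROM1 in MHCC97L thus came from 1 of 3 libraries, the one that stood apart, and no fold change is given.

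The deposited tables disagreed on BMI1 (NCBI gene number 648). In counts it was at the limit of detection, with 10, 0 and 3 reads in the wild-type libraries, 1, 0 and 4 in those of MHCC97L-Src, and 2, 1 and 2 in those of MHCC97L-Oxa. In FPKM the same libraries had 9.88, 1.16 and 3.78, then 1.11, 0.848 and 1.50, then 1.46, 1.58 and 1.91. By FPKM BMI1 ranked above SOX9 in MHCC97L, where 70.2% of the genes had a lower mean FPKM, and overlapped with SOX9 in both resistant lines. A value of 1.16 FPKM in MHCC97L replicate 2 stood beside a count of 0.

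BMI1 lies on chromosome 10 from 22321211 to 22331484 on the + strand. Its neighbour COMMD3 and the readthrough gene COMMD3-BMI1, which joins their transcripts, are listed as well. COMMD3-BMI1 had 0 counts in every library, and COMMD3 had 16 to 46 counts beside 12.2 to 18.8 FPKM. The reads implied by the FPKM, the longest GENCODE transcript and the library total were 22.7 to 96.8 times the BMI1 count in the 7 libraries with reads, and 16.3 to 31.4 times the COMMD3 count. For the other detected markers this ratio was at most 1.12. Among 11979 genes with a mean of at least 10 counts its median was 0.714, and 0.209% of them had a ratio of 10 or more. Of the 4283 exonic bases that all GENCODE transcripts of BMI1 cover, 23.3% also belong to COMMD3-BMI1. The deposited genes carry NCBI gene numbers, and the share of such bases in that annotation was not measured. How the counting treated such shared bases is not given in the sources used here, and their part in the low counts was not tested.

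A test on log2(FPKM + 1) by limma-trend, added after seeing the data, gave BMI1 a log2 fold change of -1.17 (SE 0.59, adjusted p = 0.320) in MHCC97L-Src, -0.87 (SE 0.58, adjusted p = 0.442) in MHCC97L-Oxa and -0.30 (SE 0.14, adjusted p = 0.324) between them. The level in MHCC97L replicate 1, at 9.88 FPKM, was again the highest of its group. The plot of BMI1 and COMMD3 sets counts beside FPKM.

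**Figure D3:**
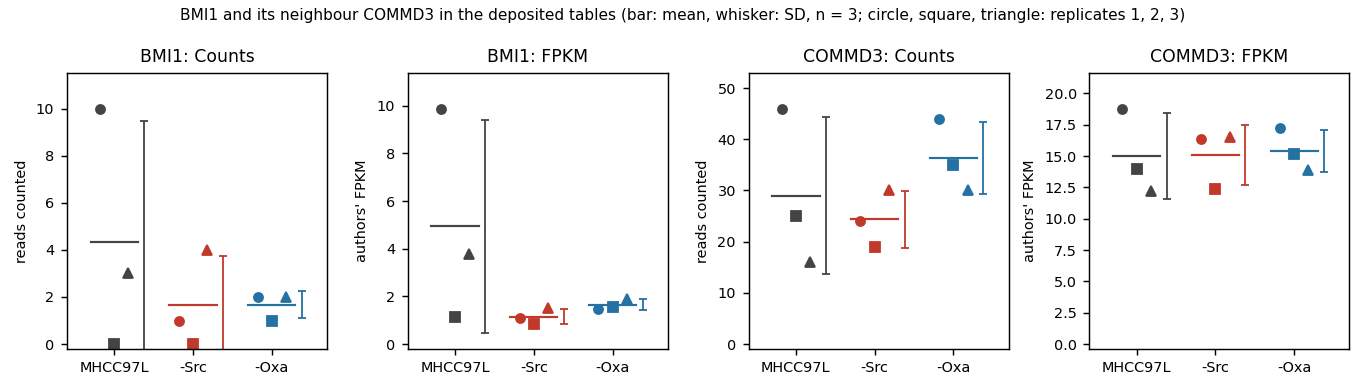
Reads counted and the authors' FPKM of BMI1 and of its neighbour COMMD3 in each library on linear axes, with bars for the mean and whiskers for the SD (n = 3), cut off below the axis. BMI1 has 0 to 10 reads in every library, yet 0.848 to 9.88 FPKM.

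The partners, relatives and targets of the markers were then counted from lists of related genes. Calls are those of edgeR on the uncorrected counts unless the correction for GC content and length is named, which called more of all genes as given above. Counts at an unadjusted p under 0.05 stand beside the 29.5%, 22.4% and 19.5% of all genes at that p in the 3 comparisons. Of 23 other tumor-initiating cell markers, among them CD44, EPCAM and THY1, 6 had 0 counts in all libraries and 10 were tested in MHCC97L-Src against MHCC97L, of which 1 rose and 1 fell. CXCR4, the receptor of the chemokine CXCL12, rose from 55.3 to 84.3 CPM over the MHCC97L libraries to 183 to 277 in MHCC97L-Src (log2 fold change 1.70, SE 0.26, edgeR adjusted p = 0.0190), with 139 to 198 CPM in MHCC97L-Oxa. KRT7, a keratin of bile duct epithelium, fell from 1912 to 3794 CPM over the MHCC97L libraries to 703 to 1043 in MHCC97L-Src (log2 fold change -1.86, SE 0.33, edgeR adjusted p = 0.0300). It was also lower in MHCC97L-Src than in MHCC97L-Oxa, where it had 1575 to 1851 CPM (log2 fold change -0.99, SE 0.15, edgeR adjusted p = 0.00501), the 1 call among 11 tested genes of that comparison. In MHCC97L-Oxa against MHCC97L 0 of 11 were called by edgeR, with 4 at an unadjusted p under 0.05. After the correction 1 was called higher and 3 lower in MHCC97L-Oxa, among them CXCR4 (log2 fold change 1.47, edgeR adjusted p = 0.0343) and KRT7 (-1.24, adjusted p = 0.00224), which were also called without MHCC97L replicate 1 (0.0127 and 0.00294). The corrected counts were 1 higher and 2 lower in MHCC97L-Src against MHCC97L, and 1 and 3 between the resistant lines.

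Of 13 further pluripotency factors 7 were at 0 counts in all libraries, and 0 of the 2 tested genes were called in any comparison by edgeR, with 1, 0 and 0 at an unadjusted p under 0.05. SALL4, an oncofetal zinc finger factor, had 25.3 to 41.4 CPM in wild-type libraries, 26.4 to 31.8 in MHCC97L-Src and 28.4 to 32.2 in MHCC97L-Oxa, with overlap throughout. TFCP2L1, a factor of the naive pluripotent state, had 3.45 to 8.82, 2.15 to 3.51 and 2.27 to 4.07 CPM. Among 16 other SOX genes 5 were at 0 counts and 5 were tested. SOX7, an endodermal factor, was higher in MHCC97L-Src (32.1 to 36.0 CPM) than in MHCC97L-Oxa (16.6 to 19.9; log2 fold change 0.85, SE 0.15, edgeR adjusted p = 0.0116) and had 9.75 to 13.0 CPM in MHCC97L. It was the 1 SOX gene called in any comparison, and the correction called 1 higher, 1 lower and 1 higher in the 3 comparisons. Among 16 other KLF genes 0 of the 12, 12 and 11 tested were called by edgeR, with 3, 1 and 3 at an unadjusted p under 0.05, while after the correction 1 was higher in MHCC97L-Src, 1 higher in MHCC97L-Oxa and 2 lower between them. The most abundant of them in FPKM were KLF16, with 50.3 to 104 CPM in MHCC97L and 102 to 137 in the resistant lines, and KLF13, with 161 to 258 and 262 to 288 CPM.

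The wider MYC network made a list of 13 genes, of which 12 were tested. It holds relatives, dimer partners and antagonists of MYC, and also MLX, MLXIP and MLXIPL, which are not partners of MYC itself. MLXIPL, the carbohydrate-responsive factor ChREBP, was the 1 gene called on the uncorrected counts, whereas the correction called 3 higher in MHCC97L-Src, 3 higher in MHCC97L-Oxa and 1 higher between them. MLXIPL rose from 11.2 to 14.5 CPM over the MHCC97L libraries to 39.7 to 44.9 in MHCC97L-Src (log2 fold change 1.72, SE 0.30, edgeR adjusted p = 0.0255) and exceeded the 18.7 to 19.1 CPM of MHCC97L-Oxa (1.18, SE 0.14, adjusted p = 0.00135). Of 20 common MYC targets in ribosome synthesis and metabolism, 19 were tested and 0 were called against MHCC97L by edgeR in either line, with 7 at an unadjusted p under 0.05 in each, beside 29.5% and 22.4% of all genes. The corrected fit called 2 of them in MHCC97L-Src and 5 in MHCC97L-Oxa, all lower. The median log2 fold change of the targets was -0.66 in MHCC97L-Src and -0.67 in MHCC97L-Oxa, or -0.53 and -0.56 once corrected for GC and length. All genes tested had medians of -0.16 and -0.19, or -0.045 and -0.075 after the same correction. Without MHCC97L replicate 1 the medians of all genes were -0.040 and 0.00097, and no median of the targets is given for that fit. The MHCC97L-Src libraries lay all above those of MHCC97L for 2 targets and all below for 2. The MHCC97L-Oxa libraries did so for 2 and 4 targets, beside 29.8% and 28.1% of all genes apart in either direction. MYC itself was at 0.71 and 0.45, or 0.43 and 0.22 corrected. Between the resistant lines the median of the MYC targets was 0.24, and TFRC, the transferrin receptor, was lower in MHCC97L-Src (55.3 to 62.0 CPM) than in MHCC97L-Oxa (74.7 to 135 CPM; log2 fold change -0.84, SE 0.19, edgeR adjusted p = 0.0385). In MHCC97L TFRC had 36.2 to 452 CPM, and the GC and length correction ended the call (-0.56, adjusted p = 0.123), while it called 4 targets higher and 1 lower in that comparison.

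The Polycomb list holds subunits of Polycomb complexes, among them relatives of BMI1 and genes that are not its partners, and the target CDKN2A. All 20 genes were tested, and 0 were called in any comparison by edgeR. At an unadjusted p under 0.05 there were 8, 4 and 4, beside 29.5%, 22.4% and 19.5% of all genes. After the correction 4 were called higher and 1 lower in MHCC97L-Src, 3 higher and 1 lower in MHCC97L-Oxa, and 1 higher between them. CDKN2A, which encodes the cell cycle inhibitor p16, had 340 to 721 CPM in wild-type libraries, 536 to 854 in MHCC97L-Src and 569 to 630 in MHCC97L-Oxa. Of 17 other ALDH genes 13 were tested and 0 were called in any comparison by edgeR, with 0, 3 and 2 at an unadjusted p under 0.05, and the correction called 2 lower in each comparison with MHCC97L and 1 higher and 1 lower between the resistant lines. ALDH2, the mitochondrial acetaldehyde dehydrogenase, had 73.8 to 110 CPM in MHCC97L and 116 to 148 in the resistant lines, and ALDH3B1 60.1 to 117 and 90.8 to 140 CPM.

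The retinoid pathway, downstream and upstream of ALDH1A3, held 17 genes, of which 11 were tested. CRABP2, which carries retinoic acid to its nuclear receptors, rose from 6.96 to 10.2 CPM over the MHCC97L libraries to 25.2 to 62.9 in MHCC97L-Src (log2 fold change 2.30, SE 0.42, edgeR adjusted p = 0.0325). It was also higher there than the 12.8 to 16.95 CPM of MHCC97L-Oxa (1.57, SE 0.29, adjusted p = 0.0129). DHRS3, which turns retinal back to retinol, was lower in MHCC97L-Src (27.8 to 40.8 CPM) than in MHCC97L-Oxa (64.2 to 74.0 CPM; -1.01, SE 0.16, adjusted p = 0.00624), as was RARA, a retinoic acid receptor, with 55.5 to 71.0 against 89.1 to 93.5 CPM (-0.53, SE 0.12, adjusted p = 0.0403). In MHCC97L DHRS3 had 17.3 to 31.95 and RARA 57.5 to 96.0 CPM. In MHCC97L-Oxa against MHCC97L 0 of the 11 retinoid genes were called by edgeR, with 2 at an unadjusted p under 0.05. The correction called 2 higher there, among them DHRS3 (log2 fold change 1.12, edgeR adjusted p = 0.00348), which was also called without MHCC97L replicate 1 (adjusted p = 0.00294). In MHCC97L-Src against MHCC97L it called 1 higher and 1 lower, the latter RARA (-0.76, adjusted p = 0.00839, from -0.37 uncorrected), and between the resistant lines 1 higher and 2 lower. In each list the median in each comparison is shown in the plot of related gene lists.

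Each call of CXCR4, KRT7, MLXIPL and CRABP2 in MHCC97L-Src against MHCC97L was lost in 4 of 6 fits with a single library left out, namely MHCC97L replicate 3 or any of the 3 MHCC97L-Src libraries, with edgeR adjusted p up to 0.0942, 0.151, 0.154 and 0.146. Over the 6 fits the log2 fold change was 1.54 to 1.90 for CXCR4, -2.07 to -1.68 for KRT7, 1.66 to 1.81 for MLXIPL and 1.93 to 2.57 for CRABP2, and the 4 fits that lost the calls called 22 to 69 genes in all, against 256 with every library. Between the resistant lines KRT7, MLXIPL and DHRS3 were called in all 6 such fits. SOX7 lost its call without any of the MHCC97L-Oxa libraries or MHCC97L-Src replicate 1 (adjusted p up to 0.109), CRABP2 without MHCC97L-Oxa replicate 2 or 3 (up to 0.0925), TFRC without MHCC97L-Oxa replicate 2 or 3 or MHCC97L-Src replicate 1 (up to 0.164), and RARA in all fits but the one without MHCC97L-Src replicate 2 (up to 0.206). Their log2 fold changes stayed between 0.78 and 0.90, 1.18 and 1.86, -1.04 and -0.61, and -0.61 and -0.42 over these fits.

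**Figure D4:**
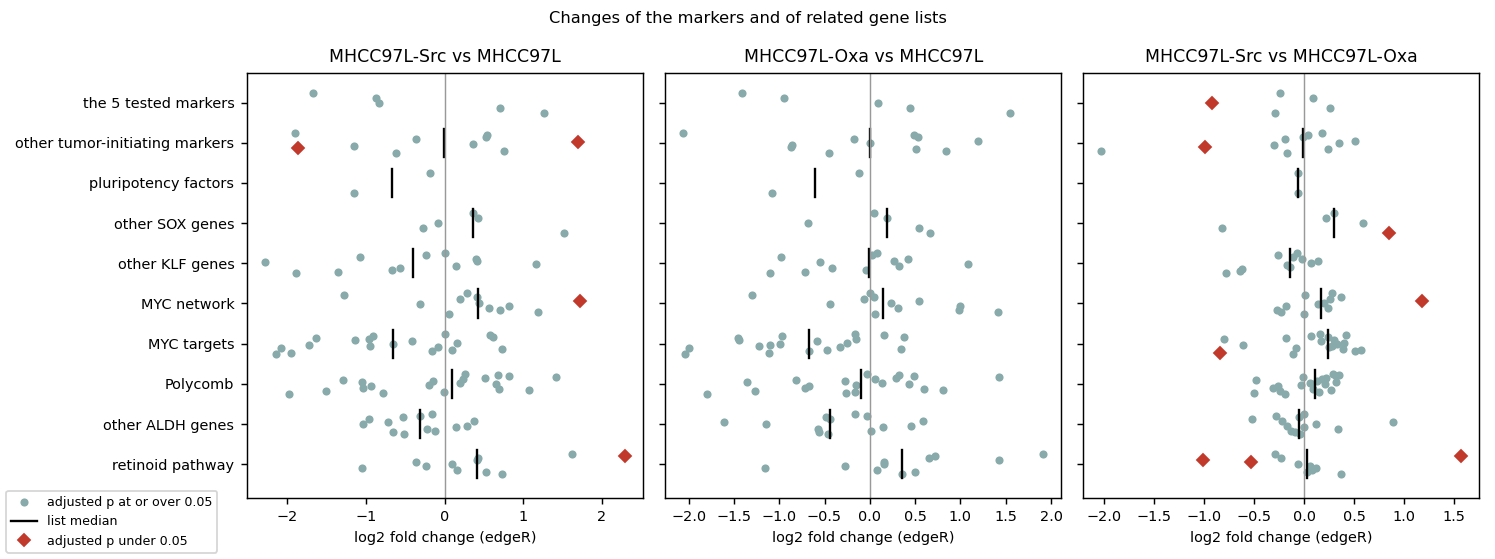
Log2 fold change of every tested gene of the marker set and of 9 lists of related genes in the 3 comparisons, with 1 point per gene, a vertical bar for the median of a list and diamonds for an edgeR adjusted p under 0.05 on the uncorrected counts. The middle panel, MHCC97L-Oxa against MHCC97L, holds no diamond. The MYC targets have medians of -0.66 and -0.67 against MHCC97L with MHCC97L replicate 1 included, and 0 of them are called there.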

How the data were processed

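Poly(A) RNA of the 9 libraries was sequenced from both ends after stranded library preparation. The submitters' processing notes name Trimmomatic 0.36, HISAT2 2.2.1.0 and GRCh38.p12, while the counting program is not given in the sources used here. The authors deposited raw counts per gene and, for the same genes, FPKM values. Of 20030 genes 15406 had a count, and 245 to 297 genes per library had a count but were listed at an FPKM of 0. Of the columns of values, 0 belonged to samples outside the series. The markers and the lists of related genes were chosen with earlier results of these data known.

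Counts of the 6 libraries of a comparison were tested with edgeR 4.0.16 (filterByExpr with a minimum count of 10, TMM normalization, quasi-likelihood test, Benjamini-Hochberg adjustment). A standard error was taken as the absolute log2 fold change over the root of the F statistic. CPM are TMM-normalized over 9 libraries, with a prior count of 2 on the log scale. FPKM were tested on log2(FPKM + 1) or log2(FPKM + 0.1) with limma 3.58.1. GC content and length came from the longest GENCODE release 29 transcript (19343 genes matched, 687 not) and were fitted by natural splines with 5 degrees of freedom. DESeq2 1.42.0, other scalings and filters, all 9 libraries in one fit, a replicate block and leaving out each library were the alternatives. From each list, genes called in any comparison were named, up to 4, and otherwise the 2 with the highest mean FPKM. A gene of the Polycomb list that this rule names is not reported here. Fits ran in R 4.3.3, summaries in Python 3.11.15 with pandas 2.3.3 and SciPy 1.17.1, and plots in matplotlib 3.10.9. Promoters came from RefSeq (GRCh38.p14) and matched 8 of the 10 markers, all but SOX9 and MYC.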

Additional observations from a re-analysis of the deposited data

Results flagged for a closer look

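The direct comparison of the resistant lines is the test of whether their changes from MHCC97L differ, because both share the same wild-type libraries. By edgeR's quasi-likelihood test it separated 8 of the markers and named list genes at an adjusted p under 0.05, beside 4.64% of all genes. Of these 8, MLXIPL alone was also called with all 9 libraries in one fit. The 7 related genes were named because a comparison called them, so their number is not a result about the lists. Genes of the pathway list under other observations are not counted. KLF4 was lower in MHCC97L-Src than in MHCC97L-Oxa by a log2 fold change of -0.92, KRT7 by -0.99, DHRS3 by -1.01, TFRC by -0.84 and RARA by -0.53. SOX7 was higher in MHCC97L-Src by 0.85, MLXIPL by 1.18 and CRABP2 by 1.57. All libraries came in groups of 3, too few for a search for single outlying values.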

How the results depend on the processing

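The number of tested markers called, 0 in MHCC97L-Src against MHCC97L, 0 in MHCC97L-Oxa against MHCC97L and 1 between the resistant lines, changed with the processing as follows, and the cause was not tested. In MHCC97L-Src it was 2 by DESeq2, 4 with all 9 libraries in one fit, 2 after the GC and length correction, 2 at an unadjusted p under 0.05 for log2 fold changes over 1 in size, and 0 to 2 with a library left out. In MHCC97L-Oxa it was 1 by DESeq2, 2 with all 9 libraries, 2 after the GC and length correction, 1 on log2(FPKM + 1), 2 at the unadjusted threshold, and 0 to 3 with a library left out. Between the resistant lines it was 0 with all 9 libraries, 0 on either FPKM scale, 0 at the unadjusted threshold, and 0 to 2 with a library left out. Over all genes the fits with a library left out called 22 (without MHCC97L replicate 3) to 3419 (without MHCC97L replicate 2) in MHCC97L-Src, 2 to 2705 in MHCC97L-Oxa, and 167 to 1617 between the resistant lines. The GC and length correction with a library left out was added after seeing the data.

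Whether the replicate numbers pair the libraries was not settled. Deviations of libraries with the same number correlated on average at -0.0869, 0.0266 and -0.106 in the 3 comparisons. For different numbers the averages were 0.0320, -0.0141 and 0.0530. Single pairs ranged from -0.631 to 0.642 in MHCC97L-Src against MHCC97L. Because deviations from a mean of 3 libraries are tied to each other, these averages cannot exclude pairing. With the replicate block 0, 0 and 1 markers were called, and KLF4 had a log2 fold change of -0.94 between the resistant lines (adjusted p = 0.0188). Over all genes the block called 988, 92 and 406, against 256, 115 and 556 without it. With the block and the GC and length correction 0, 2 and 1 markers and 214, 599 and 472 genes were called.

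The direction of KLF4 in MHCC97L-Oxa against MHCC97L turned to -0.14 after the GC and length correction, -0.11 with the block added and -0.046 without MHCC97L replicate 3, within a range of -0.046 to 0.31 with a library left out. CD24 between the resistant lines turned to -0.0090 on log2(FPKM + 1) and -0.0093 on log2(FPKM + 0.1). Of 253 values of the 5 tested markers under the alternatives, direction was kept in all but these 5. These leave out the corrected fits with a library left out, where KLF4 in MHCC97L-Oxa against MHCC97L was negative in 5 of 6 (-0.32 to -0.048). Of the 7 related genes called between the resistant lines, 6 lost the call with all 9 libraries in one fit (adjusted p 0.101 to 0.999), which called 86 genes in all, and MLXIPL kept it. TFRC lost it also after the GC and length correction, with the block added and on either FPKM scale (0.0781 to 0.230), and RARA with DESeq2 size factors (0.0679) or the block (0.0983). In MHCC97L-Src against MHCC97L MLXIPL lost its call on log2(FPKM + 1) (0.0507), and with block and correction MLXIPL (0.0598) and CRABP2 (0.0546) did. Directions were kept. Low counts limit what can be said of ALDH1A3, SOX9, PROM1 and BMI1, which rest on 0 to 148 reads per library. The part of depth in the BMI1 counts was not tested.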

Other observations

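The pathway annotation in the deposited table lists 139 genes under signaling that regulates pluripotency of stem cells, a list looked at after seeing the data. KLF4, MYC, BMI1, SOX2 and NANOG are in it, and 24 of its genes had 0 counts in all libraries. In MHCC97L-Src against MHCC97L 96 were tested by edgeR, of which 1 rose and 4 fell, beside 2.13% of all genes called. In MHCC97L-Oxa 0 of 97 were called, beside 0.953%, and between the resistant lines 1 was higher and 7 were lower in MHCC97L-Src of 96 tested, beside 4.64%. At an unadjusted p under 0.05 there were 33, 20 and 23, beside 29.5%, 22.4% and 19.5% of all genes. The ID genes, inhibitors of helix-loop-helix factors and common targets of bone morphogenetic protein signaling, made up 3 of the 4 that fell, and were singled out after their values were seen. The log2 fold change in MHCC97L-Src was -2.28 for ID1 (SE 0.30, edgeR adjusted p = 0.0118), -4.48 for ID2 (SE 0.50, adjusted p = 0.00693) and -2.5998 for ID3 (SE 0.33, adjusted p = 0.0113). Between the resistant lines it was -2.35, -3.09 and -1.80, called in all 6 fits with a library left out. Against MHCC97L the calls of ID1 and ID3 were lost without MHCC97L replicate 3 or MHCC97L-Src replicate 3 (adjusted p up to 0.0619 and 0.0611), with log2 fold changes of -2.46 to -2.07 and -2.82 to -2.42 over the 6 fits. The other gene that fell was SKIL, a repressor of SMAD proteins (-3.49, SE 0.71, adjusted p = 0.0467, or -1.84 after the GC and length correction), and the gene that rose was INHBE, an activin subunit (2.66, SE 0.49, adjusted p = 0.0344). Both calls were lost without MHCC97L replicate 3 or any MHCC97L-Src library, with adjusted p up to 0.167 and 0.137 and log2 fold changes of -3.90 to -2.67 and 2.40 to 3.11 over the 6 fits.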
